A study of Mus musculus with 6 samples.

Results

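The VEGF and angiopoietin genes are considered here as a set of 10 members, chosen by name: the ligands Vegfa, Vegfb and Vegfc, their receptors Flt1, Kdr and Flt4, the ligands Angpt1 and Angpt2, and the receptors Tek and Tie1. They are 10 of the 36047 genes to which the quantified transcripts could be joined, and all 10 passed the filter on low counts (at least 10 counts in at least 3 libraries) that left 20094 genes for testing. The study asked how the infarcted heart changes when Wnt secretion is blocked after ischemia/reperfusion (I/R), a transient closure of a coronary artery. LGK974 inhibits Porcupine, the enzyme that adds the lipid Wnt proteins need for release. The 6 libraries were made from the infarct area of C57BL6 hearts at 48 h after I/R, from 3 mice given LGK974 and 3 given the DMSO vehicle. The labels give an age of 12 weeks, and the study's methods state female mice and daily oral gavage starting right after surgery. Both groups had undergone the same surgery, and no sham-operated hearts were part of the comparison, so the values describe injured tissue with and without the drug. Whole tissue was sequenced, so fewer cells of a type and less RNA per cell cannot be told apart.

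VEGF ligands are secreted dimers that bind receptor tyrosine kinases on endothelial cells. VEGF-A acts mainly through the kinase encoded by Kdr and is also bound, with high affinity and weaker signaling, by the product of Flt1, which is made both as a membrane receptor and as a truncated soluble form that traps ligand. VEGF-C acts on Flt4 in lymphatic vessels. Angiopoietin-1, made by cells outside the endothelium, keeps vessels quiet through the receptor Tek (also called Tie2), angiopoietin-2, made by endothelial cells, opposes it in many settings, and Tie1 is a co-receptor. In the heart VEGF-B is made largely by cardiomyocytes.

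The coding sequence at which the main isoforms of Vegfa and of Flt1 part is shown, because it sets the form of the protein that each transcript encodes. The transcripts also differ elsewhere, in their ends and in where coding starts. The Vegfa gene (ENSMUSG00000023951.17) lies on chromosome 17 of GRCm38 at 46016993 to 46032369, on the minus strand. Its coding exons 6 (chr17:46022277-46022348, 72 bases) and 7 (chr17:46020991-46021122, 132 bases) lie between exon 5 (chr17:46024065-46024094) and the last coding exon (chr17:46018861-46018879). They encode the parts of VEGF-A that hold it to heparan sulfate and neuropilins: the form with neither exon diffuses freely, the form with exon 7 alone is intermediate, and the form with both is bound to matrix. In the coding runs below, 5′ to 3′ from exon 5 to the coding end without the stop codon, capitals mark exon 7 in the second run and exon 6 in the third. The runs were read from the GENCODE transcripts of GRCm38.
Vegfa-201, neither exon: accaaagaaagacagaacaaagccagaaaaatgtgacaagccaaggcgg
Vegfa-202, exon 7 without exon 6: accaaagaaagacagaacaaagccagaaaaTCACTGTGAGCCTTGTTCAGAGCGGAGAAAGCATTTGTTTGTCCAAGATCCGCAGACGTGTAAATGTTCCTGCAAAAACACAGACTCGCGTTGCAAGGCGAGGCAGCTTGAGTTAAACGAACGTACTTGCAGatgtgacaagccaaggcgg
Vegfa-207, both exons: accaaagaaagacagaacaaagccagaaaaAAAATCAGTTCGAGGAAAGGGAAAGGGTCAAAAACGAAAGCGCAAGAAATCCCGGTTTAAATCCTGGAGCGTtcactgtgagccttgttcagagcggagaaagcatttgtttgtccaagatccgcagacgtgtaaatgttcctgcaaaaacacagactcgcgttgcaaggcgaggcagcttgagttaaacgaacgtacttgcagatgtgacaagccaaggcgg

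Flt1 (ENSMUSG00000029648.13) lies on chromosome 5 at 147561604 to 147726011, on the minus strand. Its full-length transcript Flt1-202 has 30 coding segments and 1333 codons. The truncated transcript Flt1-203 has 13 segments and 688 codons: it reads on from exon 13 into the following intron for 92 coding bases (chr5:147639133-147639224) and stops there, without the membrane-spanning and kinase parts. Both runs below start with the last 30 bases of exon 13, and the capitals mark the first 92 bases that follow, which come from exon 14 (chr5:147634377-147634523) in the full-length form and from the read-through in the truncated one.
Flt1-202, full length: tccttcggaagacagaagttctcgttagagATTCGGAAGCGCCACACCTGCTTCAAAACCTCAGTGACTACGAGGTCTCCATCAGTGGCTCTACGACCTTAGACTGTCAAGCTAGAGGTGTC
Flt1-203, truncated: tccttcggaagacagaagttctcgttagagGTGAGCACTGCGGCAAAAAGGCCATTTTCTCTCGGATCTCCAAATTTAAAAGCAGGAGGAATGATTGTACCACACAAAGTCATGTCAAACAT

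The libraries held 41579787 to 80398211 estimated counts, of which 28.1 to 53.6% were mitochondrial. DMSO replicate 1 stood apart: a set of 1457 odorant, vomeronasal and taste receptor genes, which heart tissue should not express, had a median of 37.9 counts per kb there, against 3.63 to 14.4 in the other 5 libraries. That level equalled 42.7% of the counts per kb of Vegfc, 43.6% of those of Flt4 and 43.8% of those of Angpt2 in the same library, 9.26 to 12.5% of those of Kdr, Tek, Angpt1 and Tie1, and 1.23 to 3.45% of those of Vegfa, Vegfb and Flt1. Leaving this library out lowered the common dispersion over all genes from 0.238 to 0.0825.

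Genes were set side by side by CPM, the counts scaled to library size, divided by transcript length in kb (mean of all 6 libraries). The study's methods name the RNA Access library kit, a capture kit, and differences in capture between genes or transcripts were not corrected for. On this scale Vegfa stood at 86.4 ± 22.4 (SD, n = 6) and Vegfb at 59.7 ± 16.7. Flt1 came next at 28.3 ± 5.71, and then Kdr at 13.3 ± 2.28, Tek at 11.9 ± 2.04, Angpt1 at 11.2 ± 7.31 and Tie1 at 10.05 ± 1.74. Flt4 at 3.08 ± 0.683, Angpt2 at 3.04 ± 0.591 and Vegfc at 2.33 ± 0.440 were lowest. The ranges over the 6 libraries of neighbours in this order overlapped, except between Vegfb and Flt1, between Flt1 and Kdr and between Tie1 and Flt4. The top of the order depended on which transcripts were counted, since short transcripts with retained introns and no coding sequence held 59.1 to 65.8% of the TPM (length-scaled transcript abundance) of Vegfa. On coding transcripts alone, a choice added after the values had been seen, Vegfb was highest at 59.1 ± 16.3 CPM per kb and Vegfa followed at 32.5 ± 9.10, with a range of 23.3 to 49.3 that overlapped that of Flt1 (17.2 to 28.7). On that scale Vegfb remained above every receptor in all 6 libraries, and Flt4, Vegfc and Angpt2 were lowest at 2.74, 2.33 and 2.12.

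LGK974 and DMSO hearts were then compared gene by gene. The quasi-likelihood test of edgeR, with Benjamini-Hochberg adjustment over all tested genes and a threshold of 0.05, called none of the 10 members, and 0 of the 10 had an unadjusted p under 0.05. Of all 20094 genes, 0 were called (0%, lowest adjusted p = 0.368), while 6.26% had an unadjusted p under 0.05 and higher values with LGK974, and 7.18% had one with lower values. DESeq2 called 1.22% of 23595 genes and none of the members, 1 of which (Angpt1) had an unadjusted p under 0.05 by that tool. The CPM of the groups overlapped for all 10 members. Over all genes, every LGK974 library lay above every DMSO library in 10.7% and below in 7.27%. The fitted log2 fold change, LGK974 minus DMSO, was above 0 for 4 members and below 0 for 6 (40.5% and 59.5% of all tested genes), with a median of −0.03 beside −0.13 over all tested genes.

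**Figure D1:**
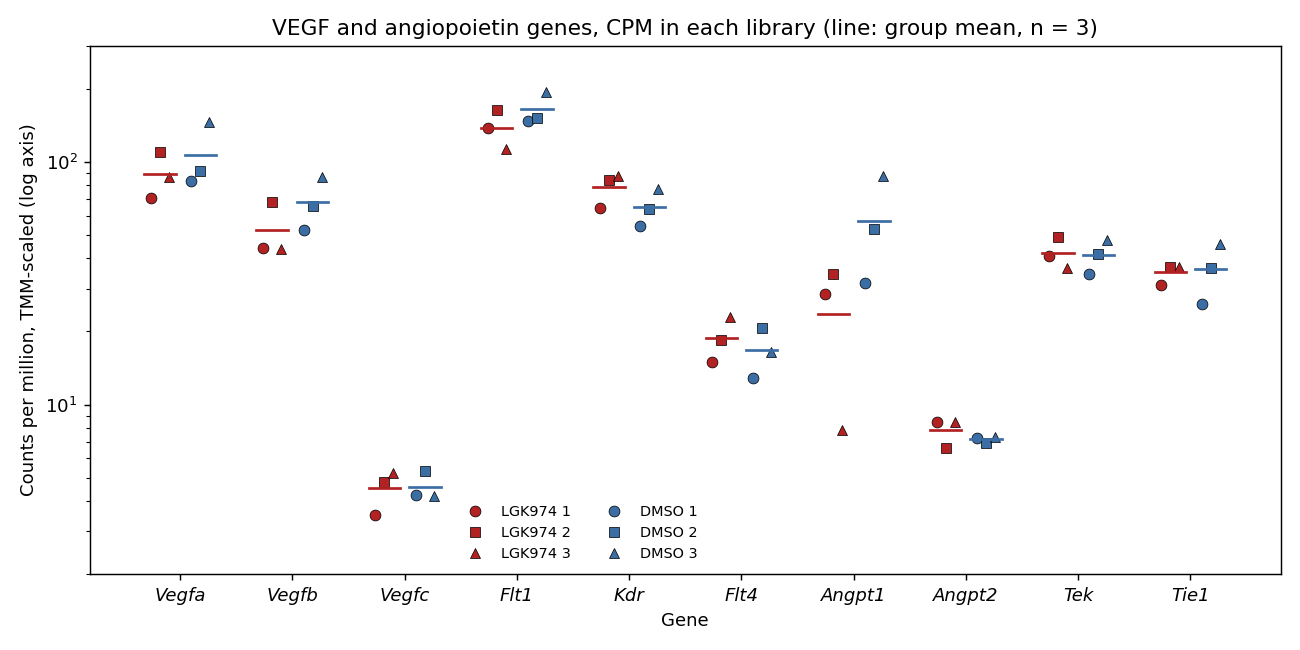
CPM (log axis) of the 10 members in each of the 6 libraries, with LGK974 in red, DMSO in blue, 1 marker shape for each replicate number and a line at the mean of each group (n = 3). The groups overlap for every member, and LGK974 replicate 3 is far below the other libraries for Angpt1, at 7.89 against 28.5 to 87.0.

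Among the VEGF ligands, Vegfa had 71.3, 110 and 86.3 CPM in LGK974 replicates 1, 2 and 3 and 83.7, 91.4 and 145 CPM in DMSO replicates 1, 2 and 3. DMSO replicate 3 was the highest and the other 5 libraries ranged from 71.3 to 110, with the groups interleaved. The log2 fold change was −0.26 (SE 0.264, adjusted p = 0.619 by edgeR with Benjamini-Hochberg adjustment), and it became 0.13 without DMSO replicate 3. Vegfb, whose product binds Flt1 alone among the VEGF receptors, had 44.3, 68.4 and 43.7 CPM with LGK974 and 52.5, 65.5 and 86.2 with DMSO. LGK974 replicates 1 and 3 were the lowest libraries and DMSO replicate 3 the highest, but LGK974 replicate 2 lay above DMSO replicates 1 and 2. Its log2 fold change was −0.39 (SE 0.254, adjusted p = 0.467 by edgeR with Benjamini-Hochberg adjustment) and shrank to −0.07 without DMSO replicate 3. Vegfc, the ligand of Flt4, had 3.50, 4.796 and 5.25 CPM with LGK974 and 4.22, 5.32 and 4.20 with DMSO, resting on 168 to 335 counts per library. Its log2 fold change was −0.02 (SE 0.262), with either sign among the alternative fits.

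The fitted differences of the 3 VEGF receptors did not share a sign. Kdr, the main signaling receptor for VEGF-A (chromosome 5, 75932827 to 75978458, minus strand), had 64.4, 84.4 and 87.3 CPM with LGK974 and 54.3, 63.6 and 77.2 with DMSO. LGK974 replicates 2 and 3 were the highest and DMSO replicate 1 the lowest, and the only overlap was LGK974 replicate 1 within the DMSO range. The log2 fold change of Kdr was 0.28 (SE 0.199, adjusted p = 0.498 by edgeR with Benjamini-Hochberg adjustment), 0.17 without DMSO replicate 1 and 0.52 without DMSO replicate 3. Flt1 had 138, 163 and 113 CPM with LGK974 and 147, 152 and 194 with DMSO. LGK974 replicate 3 was the lowest and DMSO replicate 3 the highest. Its log2 fold change was −0.25 (SE 0.207, adjusted p = 0.546 by edgeR with Benjamini-Hochberg adjustment) and was −0.0012 without DMSO replicate 3. Flt4, the lymphatic receptor, had 15.0, 18.4 and 22.9 CPM with LGK974 and 12.9, 20.7 and 16.5 with DMSO, a log2 fold change of 0.17 (SE 0.231) with interleaved groups.

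Of the angiopoietin genes, Angpt1 (ENSMUSG00000022309.9, chromosome 15, 42424723 to 42676977, minus strand) had the largest fitted difference of the 10 members. It had 28.5, 34.5 and 7.89 CPM with LGK974, a mean of 23.6 ± 13.96 (SD, n = 3), and 31.8, 53.1 and 87.0 CPM with DMSO, a mean of 57.3 ± 27.8 (SD, n = 3). LGK974 replicate 3 was the lowest, from 504 counts, and DMSO replicates 2 and 3 were the highest, while LGK974 replicate 2 lay just above DMSO replicate 1. The log2 fold change was −1.28 (SE 0.551, unadjusted p = 0.0501, adjusted p = 0.368 by edgeR with Benjamini-Hochberg adjustment), a fold of 0.413. It was −0.81 without LGK974 replicate 3, −0.74 without DMSO replicate 3 and −1.55 without DMSO replicate 1, and the adjusted p of edgeR was 0.772, 0.412 and 0.354 in these fits. With no filter on low counts, edgeR called Angpt1 with Benjamini-Hochberg adjustment (log2 fold change −1.19, adjusted p = 0.00718), in a fit that called 3.52% of 34257 genes. The exons of Angpt1 share 737 bases with those of the antisense gene Gm17473, and whether strand was used in the counting is not given in the sources used here.

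Angpt2 had 8.47, 6.62 and 8.44 CPM with LGK974 and 7.31, 6.95 and 7.37 with DMSO. The 3 DMSO libraries lay within 1 CPM of each other, with LGK974 replicate 2 below them and LGK974 replicates 1 and 3 above. The log2 fold change was 0.12 (SE 0.192, adjusted p = 0.759 by edgeR with Benjamini-Hochberg adjustment). Tek, the receptor of both angiopoietins, had 41.1, 48.8 and 36.4 CPM with LGK974 and 34.5, 41.9 and 47.5 with DMSO, a log2 fold change of 0.03 (SE 0.184). Tie1 had 31.2, 37.0 and 36.9 CPM with LGK974 and 25.9, 36.4 and 45.6 with DMSO, a log2 fold change of −0.04 (SE 0.219). For both receptors the LGK974 libraries lay inside the DMSO range or just above it, and either sign occurred when single libraries were left out.

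**Figure D2:**
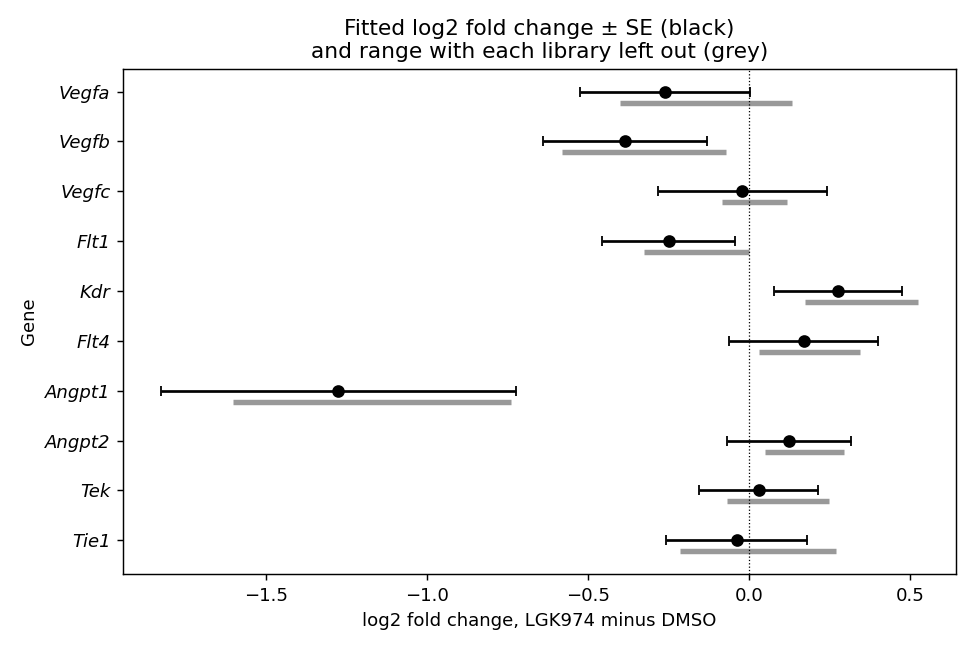
Log2 fold change of each member, LGK974 minus DMSO, from edgeR's fit with its standard error (black), and the range of the 6 fits that each left out 1 library (grey). Angpt1 lies at −1.28 with a left-out range of −1.60 to −0.74, and the other 9 members lie between −0.39 and 0.28.

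By library, 5 of the 10 members had their highest CPM in DMSO replicate 3, 4 their lowest in DMSO replicate 1 and 3 their lowest in LGK974 replicate 3. Markers of other cells differed between the groups in the same libraries. All 10 leukocyte markers were higher in every LGK974 library than in every DMSO library, with summed CPM of 474 to 605 against 206 to 295. Of 8 fibroblast markers, 4 (Postn, Col3a1, Col1a1 and Tcf21) were likewise higher, and the rest overlapped between the groups. All 8 summed to 3031 to 5102 CPM against 1480 to 2159. Col3a1 (mean of 1576 CPM with LGK974 and 717 with DMSO) and Col1a1 (1265 and 580) had the highest CPM of them, not divided by transcript length. The 10 cardiomyocyte markers summed to 18305 to 26316 CPM with LGK974 and 23126 to 32174 with DMSO, the highest again in DMSO replicate 3, and 9 of the 10 had a log2 fold change below 0, while Actc1 was at 0.86 and higher in every LGK974 library. The 12 endothelial markers summed to 725 to 746 CPM with LGK974 and 630, 764 and 904 with DMSO, with Vwf and Gpihbp1 lower in every LGK974 library, and the 9 mural cell markers to 646 to 816 against 632 to 974. Of 5 lymphatic endothelial markers, summing to 79.4 to 152 CPM against 107 to 122, 1 was higher at an unadjusted p under 0.05 (Pdpn, also expressed outside lymphatic vessels, log2 fold change 1.32) and 4 lay below 0, and none of 5 platelet markers had such a p. No marker in any of these lists was at 0, none was called by edgeR, and their part in the members' differences was not tested.

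Angpt2 and Angpt1 have opposed actions on Tek, so their ratio within a library was compared, a measure that does not depend on scaling between libraries. The log2 ratio of TPM, Angpt2 to Angpt1, was −1.10, −1.43 and 0.59 in LGK974 replicates 1, 2 and 3 and −2.09, −2.45 and −3.05 in the DMSO replicates. Every LGK974 heart had a higher ratio than every DMSO heart, and LGK974 replicate 3 was the only one with more Angpt2 than Angpt1. The mean ratio was 3.69-fold higher with LGK974 (log2 difference 1.88, exact permutation test, two-sided, p = 0.1, which is the smallest that 3 against 3 can give; p = 0.4 after Benjamini-Hochberg adjustment over 8 shares and ratios). On estimated counts the log2 difference was 1.53 and the groups overlapped (exact permutation p = 0.2), and on the TPM of coding transcripts alone it was 1.44, again with overlap (exact permutation p = 0.2). Between the units, the short noncoding transcript Angpt2-202 weighs more in TPM, and it had 0.663, 0.823 and 0.373 CPM with LGK974 and 0, 0.284 and 0.346 with DMSO. Without LGK974 replicate 3 the log2 difference of the TPM ratio was 1.26.

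Flt1 and Kdr compete for VEGF-A, and their ratio of TPM also separated the groups. Of single genes, every LGK974 library lay above every DMSO library in 10.7% and below in 7.27%. The share of all gene pairs whose ratio separates the groups is not given here, for this ratio or for Angpt2 to Angpt1. The log2 ratio of TPM, Flt1 to Kdr, was 1.01, 0.94 and 0.39 with LGK974 and 1.42, 1.35 and 1.39 with DMSO. In linear terms, this ratio of TPM was 2.55 to 2.68 in the DMSO hearts and 1.31 to 2.02 in the LGK974 hearts, with LGK974 replicate 3 the lowest. The ratio was 0.655-fold with LGK974 relative to DMSO (log2 difference −0.61, exact permutation test, two-sided, p = 0.1, p = 0.4 after Benjamini-Hochberg adjustment over the 8 values). The groups were also separate on estimated counts (−0.53, exact permutation p = 0.1) and on coding transcripts alone (−0.55, exact permutation p = 0.1). The log2 difference was −0.41 without LGK974 replicate 3 and −0.59 without DMSO replicate 1. The ratio of Vegfa to the sum of Flt1 and Kdr, in contrast, was interleaved: log2 values of 0.84, 1.14 and 1.03 with LGK974 and 1.04, 0.88 and 1.28 with DMSO (difference −0.06, exact permutation p = 0.7). Its level depended on the transcripts counted. On coding transcripts alone the log2 values were −0.41, −0.13 and −0.064 with LGK974 and −0.21, −0.079 and 0.26 with DMSO. The groups overlapped there too (difference −0.19, exact permutation p = 0.5) and on estimated counts (−0.16, exact permutation p = 0.6).

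**Figure D3:**
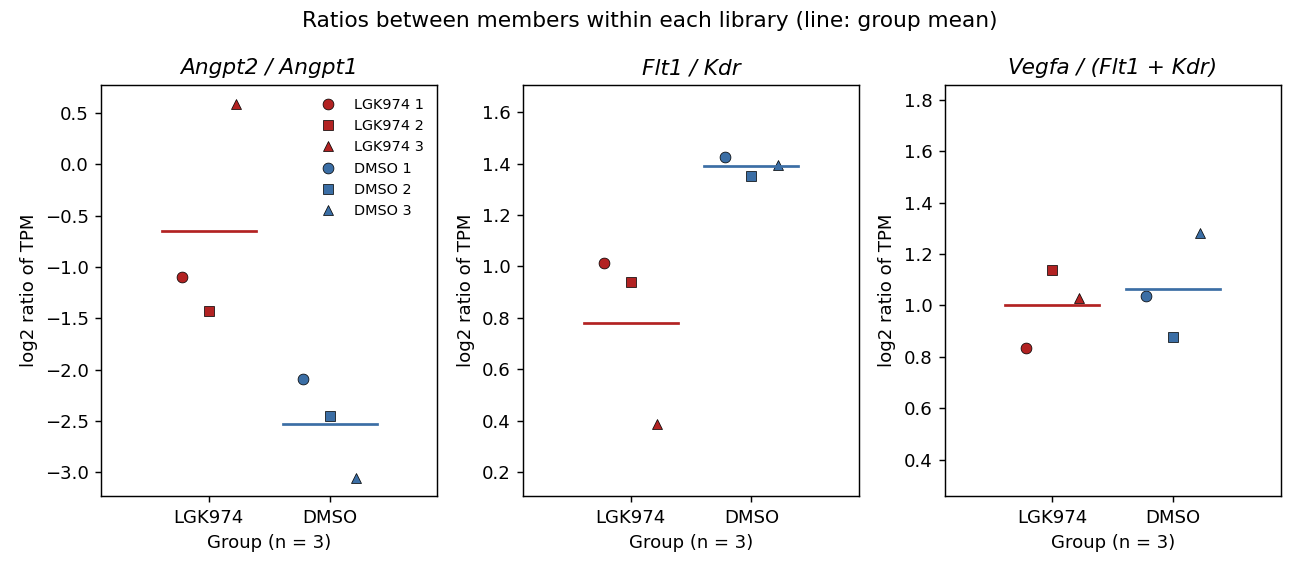
Log2 ratio of TPM over all transcripts of each gene within each library for Angpt2 to Angpt1, Flt1 to Kdr and Vegfa to Flt1 plus Kdr, with LGK974 in red, DMSO in blue, 1 shape for each replicate number and a line at the group mean (n = 3). The groups are separate in the first panel (LGK974 higher) and the second (LGK974 lower) and interleaved in the third, while on coding transcripts alone the first also overlaps.

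Since Flt1, Kdr, Flt4, Tek, Tie1 and Angpt2 are expressed by endothelial cells, their log2(CPM + 0.5) was also set against the mean of the 12 endothelial markers of the same library, and that of Vegfa, Vegfb and Angpt1 against the 10 cardiomyocyte markers. This scale was added after the values had been seen. Kdr lay 1.02, 1.32 and 1.44 above the endothelial mean with LGK974 and 0.93, 0.90 and 0.98 above it with DMSO. All 3 LGK974 values exceeded all 3 DMSO values (log2 difference 0.32, exact permutation test, two-sided, p = 0.1, p = 0.6 after Benjamini-Hochberg adjustment over 9 genes), as 13.9% of all tested genes did on this scale. Leaving out single libraries gave 0.23 to 0.44 for Kdr. Flt1 differed by −0.21 on the same scale (−0.30 to −0.079 with single libraries left out, the smallest without LGK974 replicate 3) and Tek by 0.08 (−0.0045 without LGK974 replicate 2), with overlapping groups. Tek lay 0.38, 0.54 and 0.19 above the endothelial mean in the LGK974 hearts and 0.28 to 0.30 above it in the DMSO hearts. Vegfb lay 4.36, 4.29 and 4.21 below the cardiomyocyte mean with LGK974 and 4.35, 4.36 and 4.20 below it with DMSO, a span of 0.17 over the 6 libraries, where its log2 CPM alone spanned 0.97. This was the smallest span of the 9 genes, and the share of all genes with as small a span is not given here. Vegfa spanned 0.65 on this scale and Angpt1 2.42, with overlapping groups. The Angpt1 difference was −0.98, and −0.49 without LGK974 replicate 3.

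**Figure D4:**
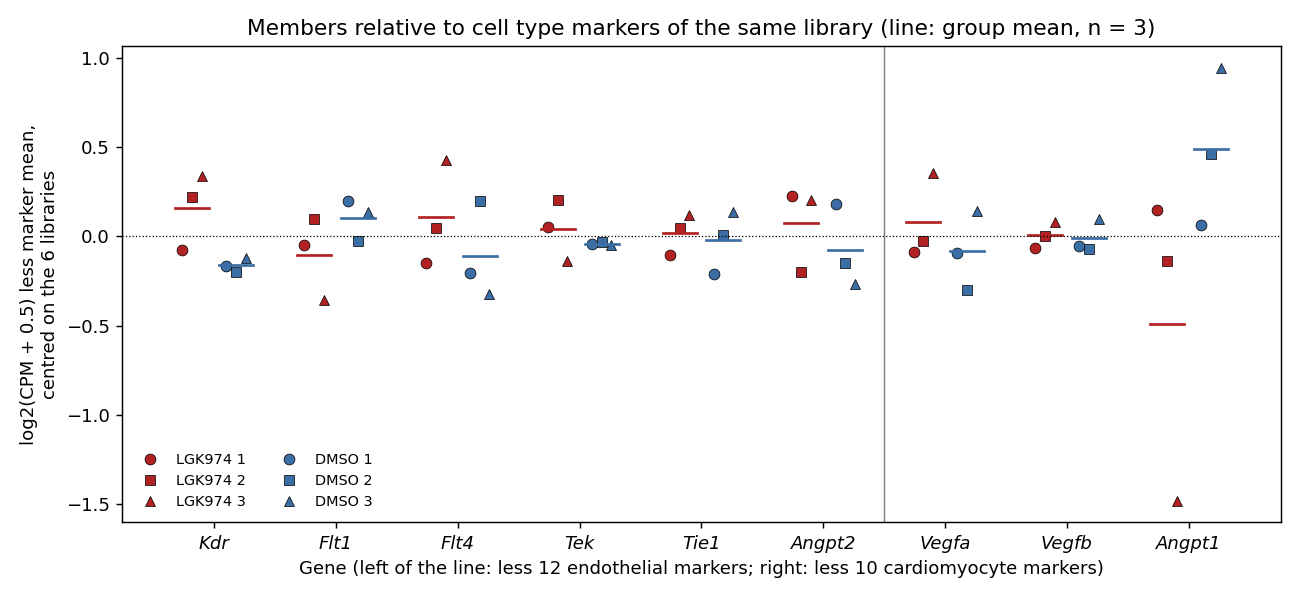
Log2(CPM + 0.5) of 9 members less the mean of the endothelial markers (left of the line) or cardiomyocyte markers (right) of the same library, centred on the mean of the 6 libraries for each gene, with a line at each group mean (n = 3). The Kdr values of the groups are separate, the Vegfb values span 0.17 and the Angpt1 values 2.42.

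At the level of transcripts, the 10 genes had 41 quantified transcripts, of which 33 passed the filter on low counts. None was called by edgeR among 59297 tested transcripts (0% called overall), and 0 of the 33 had an unadjusted p under 0.05, which 3.24% of all tested transcripts had with higher and 2.06% with lower values in LGK974. DESeq2, which called 0.731% of transcripts, called none of them either, with 1 unadjusted p under 0.05, for Angpt1-201. Of the 33, 1 lay higher in every LGK974 library (Angpt2-202) and 5 lower (Angpt1-202, Flt1-203, Flt1-206, Tie1-202 and Vegfb-202), beside 8.54% and 5.69% of all tested transcripts. Kallisto divides reads between transcripts that share sequence, and this test does not see the uncertainty of that step.

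For Flt1, the truncated Flt1-203 had 42.0, 47.1 and 36.1 CPM with LGK974 and 52.3, 47.5 and 54.4 with DMSO. All 3 LGK974 values lay below all 3 DMSO values, by a small margin for LGK974 replicate 2 against DMSO replicate 2. The log2 fold change was −0.30 (SE 0.185, adjusted p = 0.855 by edgeR with Benjamini-Hochberg adjustment), and that of the full-length Flt1-202 was −0.17 (SE 0.251), with 98.0, 111 and 74.4 CPM against 88.1, 96.4 and 133. As a share of the estimated counts of both coding transcripts, the truncated form made up 29.99, 29.8 and 32.7% with LGK974 and 37.2, 33.0 and 29.0% with DMSO. These shares overlapped (difference of −2.25 percentage points, exact permutation p = 0.6), and the difference was −0.17 without DMSO replicate 1 and −4.31 without DMSO replicate 3. Of the TPM of all Flt1 transcripts, Flt1-202 held 58.2, 55.6 and 53.9% with LGK974 and 48.7, 49.3 and 52.9% with DMSO. That share was higher, and that of the retained-intron Flt1-206 lower, in every LGK974 library (exact permutation p = 0.1 each, unadjusted). The Flt1-203 share overlapped. How many of all transcripts separate in this way is not given here.

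For Vegfa, the form with exons 6 and 7 made up 48.9, 52.0 and 58.7% of the TPM of coding transcripts with LGK974 and 48.2, 55.6 and 47.4% with DMSO. The form with exon 7 alone made up 36.9, 46.2 and 27.7% against 40.95, 37.5 and 46.7%. The form with neither exon, the freely diffusing one, was at 13.3, 1.85 and 13.6% against 10.9, 6.90 and 0.098%. Over all Vegfa transcripts, noncoding ones included, Vegfa-207 with both exons held 17.6, 18.1 and 23.6% of TPM with LGK974 and 16.5, 22.7 and 18.6% with DMSO, and Vegfa-209, a retained-intron transcript, held the most, at 32.5 to 42.5%. None of the coding shares separated the groups (exact permutation p = 0.5, 0.4 and 0.5, and 0.8 for each after Benjamini-Hochberg adjustment). A form with exon 6 but not exon 7 reached 5.86% in DMSO replicate 3, was 0.962% in LGK974 replicate 1 and was close to 0 or at 0 in the other 4 libraries. Its transcript Vegfa-203, of 513 bases, did not pass the filter on low counts. It had 36.2 estimated counts in DMSO replicate 3 and 5.90 in LGK974 replicate 1, or 0.760% and 0.124% of the estimated counts of coding transcripts. The annotated transcript Vegfa-204, with a shorter exon 6 and exon 7, had 0 estimated counts in all 6 libraries.

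**Figure D5:**
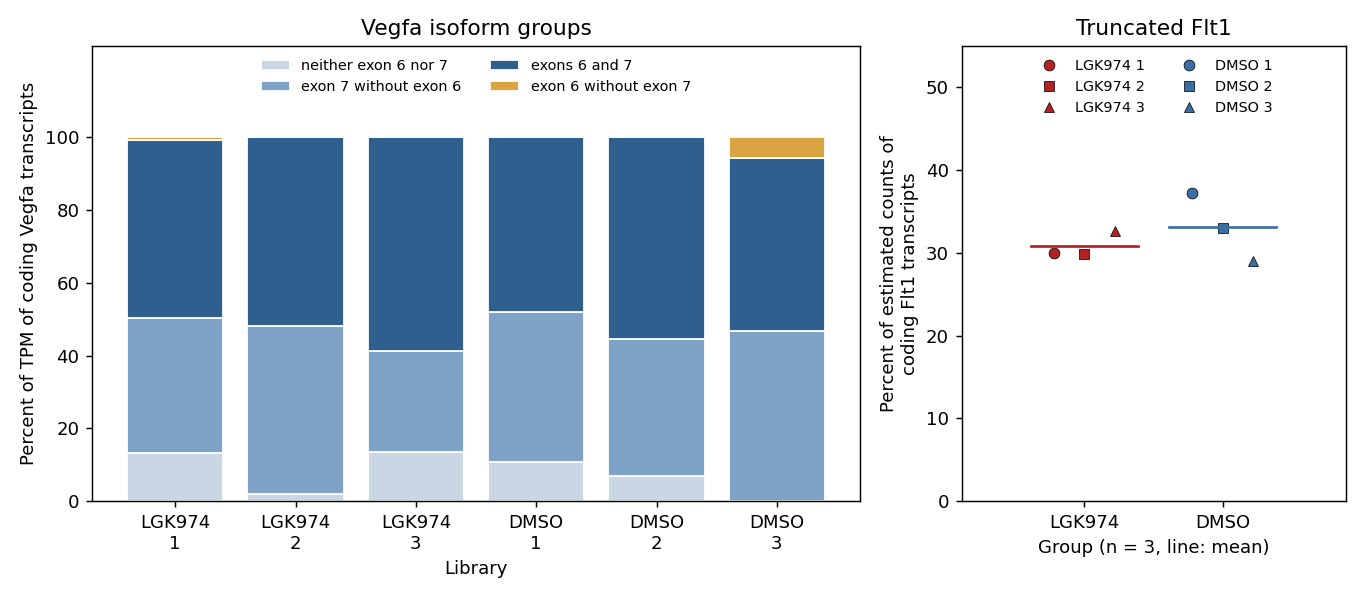
Left, stacked percent of the TPM of coding Vegfa transcripts in each library held by the 4 forms defined by exons 6 and 7. Right, percent of the estimated counts of the coding Flt1 transcripts that belong to the truncated form, with a line at each group mean (n = 3). In every library the form with both exons and the form with exon 7 alone hold most of the coding Vegfa TPM, and the truncated form is 29.0 to 37.2% of Flt1.

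Vegfb has a pair of coding isoforms, one that stays near the cell surface and one that is freely secreted, encoded by transcripts with 564 and 621 coding bases. Vegfb-202, with 564 coding bases, had 21.4, 31.4 and 16.4 CPM with LGK974 and 31.8, 37.6 and 38.2 with DMSO, each LGK974 value below each DMSO value. Its log2 fold change was −0.64 (SE 0.272, unadjusted p = 0.0519, adjusted p = 0.849 by edgeR with Benjamini-Hochberg adjustment). Vegfb-201, with 621 coding bases, had 24.6, 37.1 and 26.9 CPM against 19.6, 26.3 and 48.1, with overlapping groups and a log2 fold change of −0.09 (SE 0.363). The share of Vegfb-202 in the TPM of Vegfb was 48.9, 48.6 and 40.6% with LGK974 and 64.5, 60.8 and 46.6% with DMSO, with overlapping groups (exact permutation test, two-sided, p = 0.3).

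Other genes of the pathway were taken from lists fixed by name. Of 5 further ligands and co-receptors, 1 had an unadjusted p under 0.05, the neuropilin Nrp2, a co-receptor for VEGF-C and semaphorins (59.1 CPM in the DMSO mean, 98.8 with LGK974, log2 fold change 0.74, SE 0.218). Nrp1, the co-receptor of Kdr, had a log2 fold change of 0.34 and overlapping groups. Of 29 genes that carry the signal of VEGF receptors, 1 was higher and 1 lower at an unadjusted p under 0.05: the adaptor Shb, which binds Kdr (0.74), and the PI3-kinase subunit Pik3r1 (−0.63). Of 9 tested genes that act on Tek or downstream of it, 1 was higher at an unadjusted p under 0.05. It was the adaptor Dok2 (0.83), which is also expressed in leukocytes. The median log2 fold changes of these lists were 0.18, 0.16 and 0.03, beside −0.13 over all genes.

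Genes that VEGF or low oxygen act on, or that act on Vegfa, were listed in the same way. Of 9 genes of sprouting endothelium, 2 had higher values at an unadjusted p under 0.05, Aplnr (1.09) and Unc5b (0.81), and 1 lower, Igfbp3 (−0.54). Aplnr had 7.07, 7.95 and 20.8 CPM with LGK974 and 4.65, 6.91 and 5.21 with DMSO, far highest in LGK974 replicate 3. The groups overlapped for Unc5b. Of 16 hypoxia-inducible genes, 4 were higher, the glucose transporter gene Slc2a1 (0.77), the collagen hydroxylase gene P4ha1 (0.79), the hexokinase gene Hk2 (0.62) and Egln3 (0.57), and 1 was lower, Bnip3 (−0.80). Tcf21, Egln3 and Bnip3 are named to complete these counts, after their values had been seen. Vegfa itself, also inducible by hypoxia, was at −0.26. Of 7 regulators of Vegfa transcription, 1 was lower, the coactivator Ppargc1a (−0.78), while Hif1a had 0.35 and Epas1 −0.20. Of 6 angiogenesis inhibitors, 2 were higher at an unadjusted p under 0.05, Thbs1 (1.22) and Serpinf1 (0.85). Thbs1 had 91.9, 75.6 and 198 CPM with LGK974 and 43.5, 62.2 and 50.9 with DMSO, again far highest in LGK974 replicate 3. None of these genes was called after adjustment by edgeR, and the share of all genes at an unadjusted p under 0.05 was 6.26% higher and 7.18% lower.

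The 3 tested genes whose pattern over the 6 libraries was nearest to that of Angpt1, by Euclidean distance of mean-centred log2 CPM, were Car4 (0.561), Zbtb16 (0.565) and Sult1a1 (0.585). Each had its lowest value in LGK974 replicate 3 and its highest in DMSO replicate 3, as Angpt1 did. Since the genes were chosen for a like pattern over the same 6 libraries, this is not a separate result.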

How the data were processed

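RNA of the infarct area was sequenced in 6 libraries, 3 for each treatment, grouped by the sample labels. The authors quantified transcripts with Kallisto on an index of GRCm38, and the deposited tables list 118489 transcripts per library with TPM and estimated counts. Its version is not given in the sources used here. The deposited expected counts were joined to genes through GENCODE vM21 by transcript identifier (98.6% joined), summed and rounded, and TPM was used for shares and ratios. Counts were normalized with TMM and tested with edgeR 4.0.16 in R 4.3.3 (quasi-likelihood, Benjamini-Hochberg). DESeq2 1.42.0 and limma-voom (limma 3.58.1) were alternatives, as were another filter, normalization, unit and background, a replicate block, and leaving out each library. The edgeR step was tested on data simulated with a lower dispersion than the 0.238 of these data. That test does not show how small a change could be called here. Exact permutation tests were two-sided (SciPy 1.17.1). The members had 168 to 11747 counts per library. All members and, of the other lists, up to 3 genes with the smallest p and the most abundant gene could be named, with the 3 genes nearest the member of smallest p. Members and lists were chosen with earlier results of these data known. Ccl21a was left out because its symbol belongs to several gene identifiers.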

Additional observations from a re-analysis of the deposited data

How the results depend on the processing

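The count of called members was 0 under every alternative at gene and transcript level except for genes with no filter on low counts, where it was 1 (Angpt1). Angpt1 stayed below 0 in all 13 alternatives, from −1.60 to −0.74. At gene level its unadjusted p was under 0.05 with DESeq2, limma-voom, no filter, the replicate block and counts less background. It was also under 0.05 without LGK974 replicate 2 and without DMSO replicate 1, and above it in the other alternatives. Vegfb had an unadjusted p under 0.05 with counts less background only. Signs changed for members near 0: with counts less background Tek was −0.057 and Vegfc 0.075, with no filter Tie1 was 0.073 and Vegfc 0.12, and with DESeq2 Vegfc was 0.0052. With 1 library left out, Vegfa ran from −0.40 to 0.13, Vegfc from −0.084 to 0.12, Tek from −0.070 to 0.25 and Tie1 from −0.22 to 0.27. The causes were not tested. Leaving out 1 library likewise gave log2 Vegfa to Flt1 plus Kdr differences from −0.16 to 0.043, and differences of the Vegfa share with exon 6 alone from −2.61 to 0.32 percentage points. Whether the replicate numbers pair the mice is not given in the sources used here. Deviations from the group mean had correlations of 0.487, −0.062 and 0.315 between same-numbered libraries and −0.514 to 0.158 between the others. The replicate block called 0 genes and 0 members (Angpt1 −1.33, adjusted p = 0.264 by edgeR with Benjamini-Hochberg adjustment). Vegfc had the fewest counts of the members, 168 to 335 per library, and background was largest relative to Vegfc, Flt4 and Angpt2 in DMSO replicate 1.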
